A study of Mus musculus with 6 samples.

Results

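The genes described here are 8 transcripts of the p53 stress response in injured mouse kidney. They were taken by symbol from a deposited table of 7340 genes, and all 8 were present: Phlda3, Bak1 and Ccng1, and also Cdkn1a, Mdm2, Bax, Trp53inp1 and Sesn2. RNA was sequenced from 6 kidney samples labelled wild type, 3 after ischaemia-reperfusion injury (IRI), a block of blood flow followed by its return, and 3 after IRI with MK-8617, a compound that stabilises hypoxia-inducible factor by inhibiting its prolyl hydroxylases. Every group carried the injury, and no uninjured sample was analysed here. Age, strain, dose and time after injury are not given in the labels, although the column names of the table carry a 1d tag. For MK-8617 replicates 2 and 3 the treatment label reads MK8618 and MK8619, but all 3 titles read MK8617 and were followed. The labels do not say that replicates came from separate animals, so each p-value reflects only how far these libraries spread, and that spread may be technical.

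p53 is a transcription factor that is held at low levels by the ubiquitin ligase MDM2 and accumulates when DNA is damaged or a cell is otherwise stressed. It then switches on genes that stop the cell cycle, that make the outer mitochondrial membrane permeable and so start apoptosis, that adjust metabolism and repair, and that feed back on p53 itself. In the kidney the tubular epithelium is known to mount this response after ischaemia, and transcripts such as Cdkn1a are also controlled by factors other than p53.

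The 8 genes did not move as 1 block. Phlda3, Bak1, Ccng1 and Bax fell with MK-8617, Sesn2, Mdm2 and Trp53inp1 rose, and Cdkn1a was not past the threshold. Normalised reads are counts divided by the authors' size factor for the library, differences are in log2(normalised read + 1), and a gene was called at a Benjamini-Hochberg adjusted p below 0.05 in limma. By that rule 7 of the 8 were called, 4 of them lower and 3 higher. The table was restricted to genes whose deposited p was under 0.05, and 74.3% of all 6961 genes tested were called, 38.7% lower and 35.7% higher. Groups did not overlap in 7 of the 8, against 92.5% of all genes tested. The members' shares are therefore close to those of the table as a whole. Their median difference was -0.02, while that of all genes tested was -0.31, so Bax at -0.44 lay near the middle of the table and Phlda3 far below it.

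**Figure D1:**
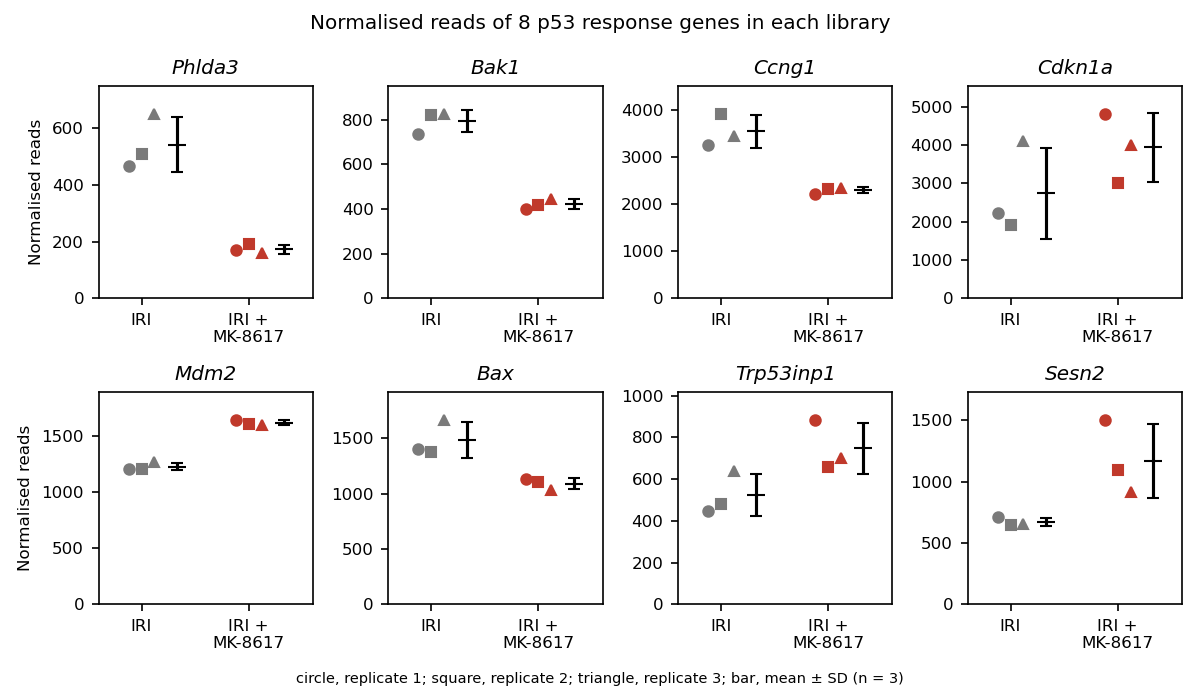
Normalised reads (vertical axis, from 0) of each of the 8 genes in the 3 IRI and the 3 IRI with MK-8617 libraries, with the mean ± SD of each group. Every MK-8617 library lies below every IRI library for Phlda3, Bak1, Ccng1 and Bax and above for Mdm2, Trp53inp1 and Sesn2, while the Cdkn1a values overlap because of IRI replicate 3.

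Phlda3 encodes a small pleckstrin homology domain protein that competes with AKT for membrane lipids and so restrains AKT signalling. The gene (ENSMUSG00000041801) lies on the plus strand of GRCm38 chromosome 1, 135766119 to 135769136. The IRI libraries held 468.5, 508.2 and 651.8 normalised reads of it (replicates 1, 2 and 3), and the MK-8617 libraries 169, 191 and 158.4. The groups were far apart, and the lowest IRI library held well over the level of the highest MK-8617 library. The mean fell by 68.2%, from 543 ± 96.5 to 173 ± 16.6 (SD, n = 3 per group). This is a log2 difference of -1.64 ± 0.16 (SE) with an adjusted p of 0.000283, lower in 3 of 3 libraries. Of the 8 genes this was the largest difference in either direction. In the authors' deposited table the log2 fold change of Phlda3 is -1.65 (adjusted p = 8.94e-16).

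Bak1 encodes BAK, which with BAX forms the pores in the outer mitochondrial membrane through which cytochrome c leaves the organelle. The gene (ENSMUSG00000057789) lies on the minus strand of chromosome 17, 27019810 to 27029009. Normalised reads were 735.4, 820.7 and 827.3 with IRI and 400.6, 416.2 and 444.5 with MK-8617. The libraries of each group lay close together, and the groups did not overlap. The mean fell by 47.1%, from 794 ± 51.2 to 420 ± 22.2 (SD, n = 3 per group), a log2 difference of -0.92 ± 0.11 (SE) with an adjusted p of 0.000578. Exons of Bak1 overlap those of Ggnbp1 on the opposite strand, and the labels do not say that counting used strand, so reads in that overlap cannot be assigned with certainty. Ggnbp1 went the other way, with a log2 difference of 0.63 ± 0.16 and 216 to 279 normalised reads with IRI against 358 to 466 with MK-8617.

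Ccng1 encodes cyclin G1, an early p53 target that recruits protein phosphatase 2A to MDM2 and so acts in the feedback on p53. The gene (ENSMUSG00000020326) lies on the minus strand of chromosome 11, 40748552 to 40755311. It had 3256.8, 3925.7 and 3456.7 normalised reads with IRI and 2226.3, 2321.3 and 2351 with MK-8617. IRI replicate 2 was the highest library, and the MK-8617 libraries were nearly level. The mean fell by 35.2%, from 3546 ± 343 to 2300 ± 65.2 (SD, n = 3 per group). On the log2 scale this is -0.62 ± 0.1 (SE) with an adjusted p of 0.00275.

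The falls of these 3 genes were of unequal size within the same libraries. The ratio of Phlda3 to Ccng1 FPKM (the deposited values scaled for gene length and library size) was 0.324, 0.292 and 0.425 in the IRI libraries and 0.171, 0.185 and 0.152 in the MK-8617 libraries. On the log2 scale of normalised reads that ratio changed by -1.01 ± 0.18 (SE), the ratio of Phlda3 to Bak1 by -0.72 ± 0.15 and the ratio of Bak1 to Ccng1 by -0.29 ± 0.06. In all 3 ratios the groups did not overlap. The exact 2-sided permutation test over the 6 samples gave p = 0.1 for each, which is the smallest p that 3 against 3 allows, and p = 0.1 when adjusted over the 10 gene pairs compared.

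To show the regulatory sequence of the genes that fell together, the 250 bases before the RefSeq start of transcription are printed for Phlda3 (chr1:135765835-135766084, plus strand), Bak1 (chr17:27028628-27028877, minus strand) and Ccng1 (chr11:40755287-40755536, minus strand), with the upstream start of Cdkn1a (chr17:29090729-29090978, plus strand) as the best known p53 target of the set. Sequences are from RefSeq on GRCm38.p6 and run 5′ to 3′. Capitals mark exact matches to the p53 decamer, the unit that is present as a pair in a full p53 response element and reads the same on both strands. Decamers with a mismatch were not searched and stay in lower case, also beside a marked one.
Phlda3: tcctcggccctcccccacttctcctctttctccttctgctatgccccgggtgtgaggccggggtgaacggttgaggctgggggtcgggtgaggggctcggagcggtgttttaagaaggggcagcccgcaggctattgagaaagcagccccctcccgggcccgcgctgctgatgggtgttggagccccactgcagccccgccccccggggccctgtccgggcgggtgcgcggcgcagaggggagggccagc
Bak1: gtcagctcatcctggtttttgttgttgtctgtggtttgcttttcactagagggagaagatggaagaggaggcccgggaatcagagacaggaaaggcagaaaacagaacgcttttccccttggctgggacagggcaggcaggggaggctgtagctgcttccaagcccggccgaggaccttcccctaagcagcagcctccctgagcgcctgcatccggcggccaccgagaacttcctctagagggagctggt
Ccng1: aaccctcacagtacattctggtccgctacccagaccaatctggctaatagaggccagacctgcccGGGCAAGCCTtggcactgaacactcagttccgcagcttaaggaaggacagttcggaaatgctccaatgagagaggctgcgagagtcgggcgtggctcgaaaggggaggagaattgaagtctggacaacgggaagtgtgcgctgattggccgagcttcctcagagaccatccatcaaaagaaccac
Cdkn1a: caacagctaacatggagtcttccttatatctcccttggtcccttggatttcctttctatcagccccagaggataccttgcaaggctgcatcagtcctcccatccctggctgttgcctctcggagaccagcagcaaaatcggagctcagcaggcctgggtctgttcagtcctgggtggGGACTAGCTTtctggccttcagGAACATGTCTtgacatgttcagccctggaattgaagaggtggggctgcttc

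RefSeq promoters were found for 7 of the 8 genes, with a pair of starts for Cdkn1a. The Ccng1 window held 1 match, GGGCAAGCCT, beginning 185 bases before the start, and the upstream Cdkn1a window held 2, GGACTAGCTT and GAACATGTCT, beginning 73 and 51 bases before it. Bax, which fell, had AGGCAAGCTT at 201 bases, and Mdm2, which rose, had GAACTTGCCT at 186 bases. No exact match was found in the windows of Phlda3, Bak1, Sesn2 or the downstream Cdkn1a start. The Bak1 window lies wholly inside the gene interval given above, so sequence before the outer end of that interval was not searched. Whether marked matches form a pair was not tested. A match was present in 7.13% of 32851 promoter windows of the same length. The core of the hypoxia response element, ACGTG, searched on both strands, was found in the Bax window alone, where it lay inside a CACGTG box. That core was present in 16.6% of all windows and CACGTG in 6.02%. These are letter matches in a short window, and genes with a match occurred among those that rose, those that fell and the gene that was not called.

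Bax, the partner of BAK in pore formation, is the fourth gene that fell. The gene (ENSMUSG00000003873) lies on chromosome 7, 45461697 to 45466898. Its normalised reads were 1405.5, 1375.4 and 1667 with IRI and 1131.1, 1106.8 and 1034.6 with MK-8617. The groups did not overlap, but the gap between them was small beside that of Bak1. The log2 difference was -0.44 ± 0.11 (SE) with an adjusted p of 0.0151, and the call was lost without MK-8617 replicate 3 (-0.4, adjusted p = 0.0554). The difference of Bak1 exceeded that of Bax by -0.48 ± 0.11 on the log2 scale (exact permutation p = 0.1, the smallest possible). Exons of Bax overlap those of Gm45808 on the same strand, so its reads carry that uncertainty.

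Among the genes that rose, Sesn2 had the largest difference. It encodes sestrin 2, a stress-induced inhibitor of mTORC1 that is also induced by amino acid shortage and endoplasmic reticulum stress. The gene (ENSMUSG00000028893) lies on chromosome 4, 132492032 to 132510501. Normalised reads were 711.7, 647.6 and 650.9 with IRI and 1503, 1090.8 and 917.7 with MK-8617. MK-8617 replicate 1 was the highest library, and the MK-8617 values were spread much more widely than the IRI values. Its log2 difference was 0.77 ± 0.17 (SE) with an adjusted p of 0.00903.

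Mdm2, the p53 target that encodes the ligase of p53, rose by a small and even amount. The gene (ENSMUSG00000020184) lies on chromosome 10, 117688875 to 117710758. Its normalised reads were 1204.9, 1208.7 and 1264.4 with IRI and 1642.3, 1606.2 and 1598.2 with MK-8617. On the log2 scale its SD within each group, 0.04 with IRI and 0.02 with MK-8617, was the smallest of the 8 genes. The log2 difference was 0.4 ± 0.09 (SE) with an adjusted p of 0.00937, and it was not called with length and GC trends removed together with the replicate block (0.28, adjusted p = 0.0773). Mdm2 and Ccng1, which both act in the feedback on p53, thus moved in opposite directions, and their log2 ratio changed by 1.02 ± 0.09 (exact permutation p = 0.1, the smallest possible). Each gene separated the groups by itself, so that p was fixed by their opposite directions.

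Trp53inp1 encodes a p53-inducible nuclear protein that promotes autophagy and p53-dependent death. The gene (ENSMUSG00000028211) lies on chromosome 4, 11156431 to 11174379. It had 449.6, 481.8 and 637.5 normalised reads with IRI and 884.2, 656.4 and 700.7 with MK-8617. IRI replicate 3 lay just below MK-8617 replicate 2. The log2 difference was 0.52 ± 0.16 (SE) with an adjusted p of 0.044. Leaving out IRI replicate 1 (0.42) or 2 (0.47), or MK-8617 replicate 1 (0.39), 2 (0.61) or 3 (0.56), ended that call, as did FPKM (0.49), a floor of 5 CPM (0.52) and the replicate block (0.52). With the trends on gene length and GC content removed the difference was 0.19 (adjusted p = 0.849).

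Cdkn1a, which encodes the CDK inhibitor p21 and is the standard readout of p53 activity, was not called. The gene (ENSMUSG00000023067) lies on chromosome 17, 29090976 to 29100727. Its normalised reads were 2211.9, 1911.9 and 4095.1 with IRI and 4813.3, 3014 and 3992.8 with MK-8617. IRI replicate 3 lay inside the range of the MK-8617 libraries, and the other IRI libraries lay below all of them. The log2 difference was 0.58 ± 0.27 (SE) with an adjusted p of 0.173. Without IRI replicate 3 it was 0.91 with an adjusted p of 0.0048. In the same library Phlda3, Bax and Trp53inp1 were also at their highest IRI level, at 0.28, 0.17 and 0.3 log2 above the IRI mean, against 0.66 for Cdkn1a, and Bak1 and Mdm2 were highest there by no more than 0.06. Summed proximal tubule markers were 589 CPM in IRI replicate 3 and 1617 and 1701 CPM in the other IRI libraries, and their part in these values was not tested. Exons of Cdkn1a overlap those of AC167363.2 on the opposite strand, so reads in that overlap carry the uncertainty described for Bak1.

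Per gene length, the order of the 8 transcripts differed between the groups. With IRI alone Ccng1 was the most abundant at 56.8 ± 5.45 FPKM (SD, n = 3), followed by Bax at 52.9 ± 5.52 and Cdkn1a at 43.3 ± 18.5, and the ranges of these neighbours overlapped. Phlda3 at 19.6 ± 3.39 and Bak1 at 18.6 ± 1.13 FPKM came next and also overlapped, ahead of Mdm2 at 13.6 ± 0.316, Sesn2 at 10.9 ± 0.625 and Trp53inp1 at 4.54 ± 0.853. With MK-8617 Cdkn1a led at 61.7 ± 14.2 FPKM, above Bax at 38.5 ± 1.63 and Ccng1 at 36.4 ± 1.11. Sesn2 at 18.7 ± 4.77 and Mdm2 at 17.7 ± 0.239 then stood above Bak1 at 9.71 ± 0.55, and Phlda3 came last at 6.16 ± 0.567, level with Trp53inp1 at 6.41 ± 1.04.

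**Figure D2:**
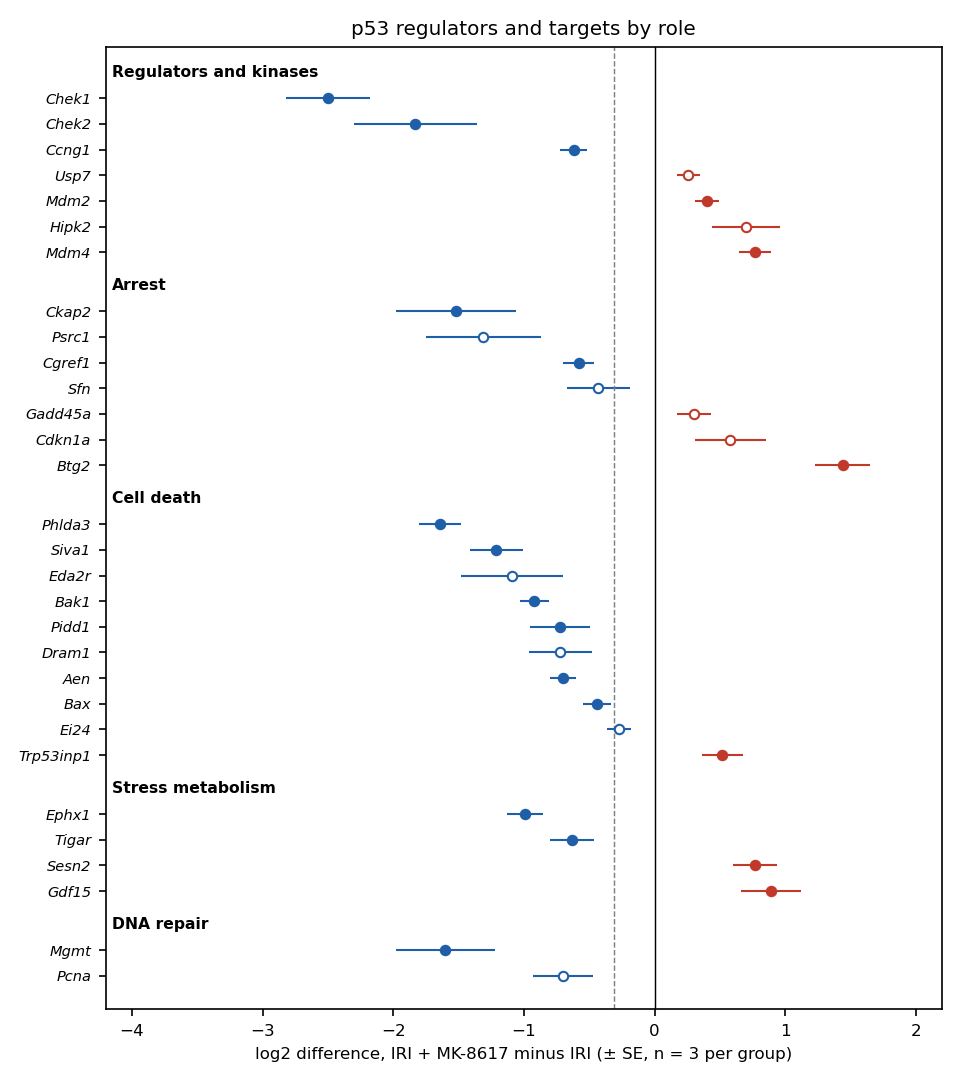
Log2 difference (horizontal axis, IRI with MK-8617 minus IRI, ± SE, n = 3 per group) of the 30 tested genes of the p53 lists, grouped by role. Filled points passed an adjusted p of 0.05, open points did not, the solid line is 0 and the dashed line is the median of all genes tested (-0.31). Cell death targets lie mostly to the left, with Trp53inp1 to the right, and regulators and metabolic targets lie on both sides.

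The wider p53 pathway was examined with 5 lists holding 69 genes, of which 30 were in the table and tested. The other 39, among them Trp53 itself and the death genes Bbc3, Pmaip1 and Fas, were not in the table and were not tested here. The table holds only genes with a deposited p under 0.05, so a gene outside it had no listed p below that value. Of the 30 tested, 14 fell, 6 rose and 10 were not past the threshold, beside 38.7% lower and 35.7% higher of all genes tested. Their median was -0.62, against -0.31. Leaving out MK-8617 replicate 3 left 9 that fell. Without the 8 genes described above the counts were 10 lower and 3 higher of 22, and with MK-8617 replicate 1 or 3 left out 6 were lower.

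Of 17 cell death targets 10 were in the table, which holds only genes with a deposited p under 0.05. Of these 10 tested targets 6 fell and only Trp53inp1 rose, beside 38.7% lower and 35.7% higher among all genes tested. The median was -0.72, against -0.31 for all genes. Phlda3, Bak1, Bax and Trp53inp1 are among the 8 genes described above, which were chosen with earlier results of these data known. They are counted here again. Besides Phlda3, Bak1 and Bax, the targets that fell were Siva1, Aen and Pidd1. Siva1, which encodes a death receptor adaptor, had 296.2, 427.2 and 358.5 normalised reads with IRI and 164.9, 179.3 and 123.3 with MK-8617, a log2 difference of -1.21 ± 0.2 with an adjusted p of 0.00268. Aen, a p53-induced exonuclease gene of apoptosis, had 1313.7, 1206 and 1413 against 852.4, 778 and 793.3, a difference of -0.7 ± 0.1. Pidd1, the scaffold gene of the PIDDosome, had a difference of -0.72 ± 0.23 (adjusted p = 0.0457). It was not called with IRI replicate 1 (-0.77) or 2 (-0.47) left out, with MK-8617 replicate 1 (-0.66), 2 (-0.78) or 3 (-0.72) left out, or with edgeR (-0.71). Eda2r (-1.09), Dram1 (-0.72) and Ei24 (-0.27) did not pass. Dram1 was called with the replicate block (adjusted p = 0.0325) and with MK-8617 replicate 3 left out (0.0102), Eda2r with the length and GC trends removed (0.0311), and Ei24 with those trends removed (0.0136) and with IRI replicate 3 left out (0.0405). The groups were separate in 10 of 10 members, and in 92.5% of all genes tested.

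Regulators of p53 went both ways. Of 17 regulator genes 7 were in the table and tested, with 3 lower and 2 higher, beside 38.7% and 35.7% of all genes tested. Mdm4, which encodes an MDM2 relative that blocks p53 transactivation, had 1138.6, 1192.3 and 1064 normalised reads with IRI and 1900.5, 2228.5 and 1706.7 with MK-8617, a log2 difference of 0.77 ± 0.12 with an adjusted p of 0.00185. Mdm4 and Mdm2 therefore both rose. The checkpoint kinase genes Chek1 and Chek2 fell, with differences of -2.5 ± 0.32 and -1.83 ± 0.47. Chek1 had 133.5, 312.4 and 175.4 normalised reads with IRI against 35.9, 35.2 and 29.8, so IRI replicate 2 stood highest. Chek2 was no longer called without IRI replicate 2 (-1.46) or MK-8617 replicate 3 (-2.03). The deubiquitinase gene Usp7 (0.26) and the kinase gene Hipk2 (0.7) did not pass. Hipk2 was called with the replicate block (adjusted p = 0.0175), DESeq2 (0.0153) and IRI replicate 3 left out (0.0404), and Usp7 with edgeR (0.0266), DESeq2 (0.00491) and limma-voom (0.0267).

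IRI replicate 2 was also the library with the most proliferation transcripts. Of the 10 proliferation markers 9 fell and 0 rose, beside 38.7% lower and 35.7% higher among all genes tested. These markers summed to 37.2, 219 and 49.8 CPM in IRI replicates 1, 2 and 3. With MK-8617 they summed to 10.7 to 12.1 CPM, and 1 of them was at 0 in a library. Chek1 and the arrest list members Ckap2 and Psrc1, which act in the spindle, followed that order. Ckap2 had 47.3, 167.6 and 54.6 normalised reads with IRI and 27.7, 27.7 and 22.3 with MK-8617, and its difference of -1.52 ± 0.46 was -0.95 and not called without IRI replicate 2. It was also not called with MK-8617 replicate 1 (-1.57), 2 (-1.57) or 3 (-1.42) left out. Phlda3, Bak1 and Ccng1 differed by -1.68, -0.89 and -0.55 without IRI replicate 2 and stayed called. The part of proliferation in these differences was not tested further.

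Other arrest targets were mixed. Of 13 arrest genes 7 were in the table and tested, with 2 lower, 1 higher and 4 not past the threshold. Over all genes tested the shares were 38.7% lower and 35.7% higher. Btg2, an antiproliferative early response gene, rose from 1244.6, 1094.8 and 1299.9 normalised reads to 3092, 2455.8 and 4660.6, a log2 difference of 1.44 ± 0.21 with an adjusted p of 0.00146. Cgref1, a growth regulator gene, fell by 0.58 on the log2 scale, a call lost with the length and GC trends removed (-0.35). Gadd45a (0.3) and Sfn (-0.43) did not pass, nor did Psrc1 (-1.31) and Cdkn1a. Psrc1 was called with the replicate block (adjusted p = 0.026), DESeq2 (0.0372) and IRI replicate 1 left out (0.0399), and Gadd45a with DESeq2 (0.0354), trends removed (0.0173) and MK-8617 replicate 3 left out (0.0487). Among the 3 tested CDK inhibitors Cdkn2c (-1.36 ± 0.34) and Cdkn2b (-0.96 ± 0.31) fell. With MK-8617 replicate 1 (-1.27) or 3 (-1.38) left out, Cdkn2c was not called. Cdkn2b was not called in 11 of 17 alternatives, among them each IRI replicate left out (-1.06 to -0.9), edgeR (-0.86) and DESeq2 (-0.84).

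Of 12 targets of stress metabolism 4 were in the table and tested, with 2 higher, Sesn2 and Gdf15, and 2 lower, Ephx1 and Tigar. Among all genes tested 35.7% were higher and 38.7% lower. Gdf15, a secreted stress cytokine gene, had 2506.2, 1763.4 and 3594.7 normalised reads with IRI and 4753.8, 3943.6 and 5391.1 with MK-8617, a log2 difference of 0.89 ± 0.23 with an adjusted p of 0.0208. Leaving out IRI replicate 1 (0.89) or MK-8617 replicate 1 (0.87) or 3 (0.78) ended the call. Ephx1, the microsomal epoxide hydrolase gene, went from 974.9, 1165 and 1410.1 to 560.4, 605.1 and 599.7, a difference of -0.99 ± 0.14. Tigar, which encodes a fructose bisphosphatase that lowers glycolytic flux, had a difference of -0.63 ± 0.17, not called with IRI replicate 1 (-0.65) or 3 (-0.54), or MK-8617 replicate 1 (-0.57) or 3 (-0.56), left out. Of the repair targets only Mgmt and Pcna were tested. Mgmt, an alkyltransferase gene, fell by 1.6 ± 0.38 on the log2 scale and was not called without MK-8617 replicate 1 (-1.56) or 3 (-1.45), and Pcna (-0.7) was not past the threshold. Pcna was called with the replicate block (adjusted p = 0.0341), DESeq2 (0.0141), no filter (0.049), and IRI replicate 1 (0.0185) or 2 (0.0461) left out.

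Bak1 and Bax belong to the BCL2 family, in which effectors form pores, guardians hold them in check and BH3-only proteins tip the balance. Of 21 family genes 11 were tested, with 7 lower and 3 higher (all genes, 38.7% and 35.7%) and a median of -0.76 (all genes, -0.31). These counts include Bak1 and Bax themselves. All 3 effector genes fell, since Bok, the third pore former, went from 963.5, 1235.1 and 1297 normalised reads to 627, 585.9 and 575.3, a log2 difference of -0.95 ± 0.13 with an adjusted p of 0.00108. The BH3-only gene Bad fell as well (-0.76 ± 0.11). The guardian Mcl1 rose from 4700.2, 4391.2 and 4881.2 to 7711.7, 6046.1 and 8053.7, a difference of 0.63 ± 0.13 with an adjusted p of 0.00672. The 5 members that follow were named after their values were seen. Bcl2l1, which encodes the guardian BCL-XL, rose by 0.46 ± 0.13, not called with IRI replicate 1 (0.51) or 2 (0.36), or MK-8617 replicate 1 (0.38) or 3 (0.44), left out. Bcl2l11, the gene of the BH3-only protein BIM, rose by 0.78 ± 0.16. The leukocyte guardian genes Bcl2a1b and Bcl2a1d, near-identical copies whose reads are uncertain, fell from 13 to 20 and from 19 to 68 reads per library to 1 to 5 and 3 to 6, as did Bcl2l14 (-1.24 ± 0.29). Bcl2a1b was not called with IRI replicate 1 (-2.1) or 2 (-2.01), or MK-8617 replicate 1 (-2.18), left out. Bcl2 and Bbc3 were not in the table.

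Bak1 was compared within each library with the guardians that rose, Mcl1 and Bcl2l1, and not with Bcl2a1b and Bcl2a1d, which fell. The FPKM ratio of Bak1 to Mcl1 was 0.222, 0.265 and 0.241 in the IRI libraries and 0.0738, 0.0978 and 0.0784 in the MK-8617 libraries. The ratio of Bak1 to Bcl2l1 was 0.309, 0.423 and 0.342 against 0.116, 0.155 and 0.141. Neither ratio overlapped between groups. The log2 ratios changed by -1.55 ± 0.14 and -1.38 ± 0.18 (exact permutation p = 0.1 for each, the smallest possible). Bak1 fell and both guardians rose without overlap, so the separation and this p were fixed by the choice of genes. These are transcript ratios in whole tissue, where fewer cells of a type and less RNA per cell cannot be told apart.

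**Figure D3:**
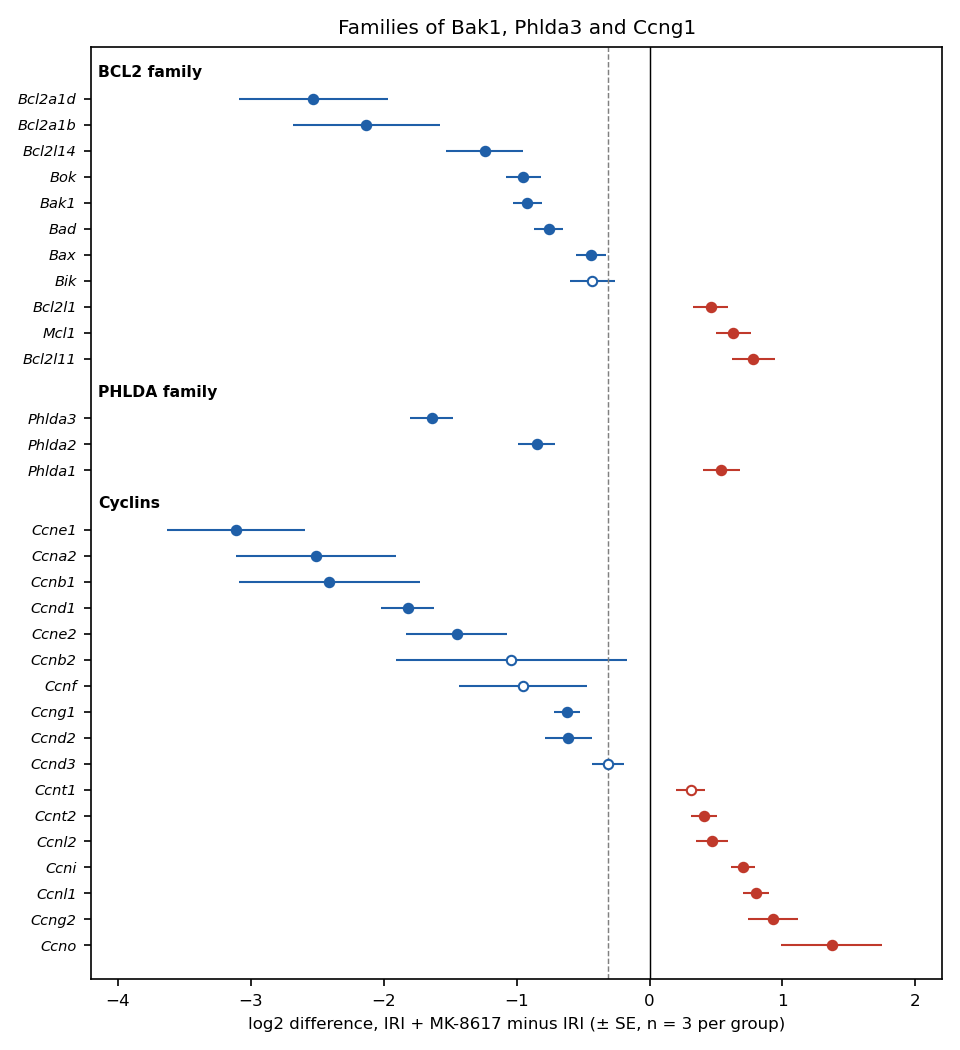
Log2 difference (horizontal axis, IRI with MK-8617 minus IRI, ± SE, n = 3 per group) of the tested members of the BCL2, PHLDA and cyclin families. Filled points passed an adjusted p of 0.05, open points did not, and the dashed line is the median of all genes tested (-0.31). The pore formers Bak1, Bax and Bok lie left of 0, and so do the guardians Bcl2a1b and Bcl2a1d. The guardians Mcl1 and Bcl2l1 and the BH3-only gene Bcl2l11 lie right of it. Phlda3 and Ccng1 lie opposite their relatives Phlda1 and Ccng2, while Phlda2 lies on the side of Phlda3.

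Downstream of the pore, 14 of 23 genes of the caspase and mitochondrial death machinery were tested, with 8 lower and 4 higher, where 38.7% of all genes tested were lower and 35.7% higher. Cycs, the cytochrome c gene, fell by 0.83 ± 0.1 and Htra2, a mitochondrial protease gene that neutralises caspase inhibitors, by 0.89 ± 0.12 on the log2 scale. Xiap, the gene of the main caspase inhibitor, rose by 0.69 ± 0.1 but was not called once length and GC trends were removed (0.21), and the mitochondrial nuclease gene Endog rose by 0.75 ± 0.12.

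The relatives of Phlda3 and Ccng1 did not share their direction throughout. Phlda2, an imprinted growth restraint gene, had 503.5, 523.7 and 414.1 normalised reads with IRI and 255.1, 298.8 and 245.6 with MK-8617. It fell by 0.85 ± 0.14 on the log2 scale, a call lost with the length and GC trends removed (-0.43). Phlda1 rose by 0.54 ± 0.14, from 251.8, 305.1 and 286.6 to 414.9, 359.7 and 453, and was not called with IRI replicate 1 (0.46), or MK-8617 replicate 1 (0.52) or 3 (0.46), left out. The ratio of Phlda3 to Phlda1 FPKM was 2.63, 2.36 and 3.22 with IRI and 0.576, 0.751 and 0.495 with MK-8617. Ccng2, the closest relative of Ccng1 and a target of FOXO factors, rose from 442, 362.5 and 464.9 normalised reads to 1058.3, 625.4 and 783.7, a difference of 0.93 ± 0.19 with an adjusted p of 0.00694. Of 17 tested cyclins 7 fell and 6 rose, close to the shares of all genes tested (38.7% and 35.7%). Ccnd1, the G1 cyclin D1 gene, fell by 1.82 ± 0.2, and Ccni, an atypical cyclin gene, and Ccnl1, a cyclin gene linked to splicing, rose by 0.7 ± 0.09 and 0.8 ± 0.1.

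In the pathway that PHLDA3 restrains, 9 of 22 PI3K and AKT genes were tested, with 2 higher, 0 lower and 7 not past the threshold. Fewer members were thus called than in the whole table, where 35.7% were higher, 38.7% lower and 74.3% called. Pik3r1, the regulatory subunit gene p85α of PI3K, rose by 1.47 ± 0.16, from 1388.5, 1588.5 and 1055.4 normalised reads to 3267.2, 3739.7 and 4054.5. Rictor, the scaffold gene of mTORC2, rose by 0.66 ± 0.11 but was not called after the removal of length and GC trends (0.29). Akt1 (-0.33), Pik3cb (0.35) and Foxo1 (0.51) did not pass. Akt1 was called with the replicate block (adjusted p = 0.0462) and with trends removed (0.0342), Pik3cb with edgeR (0.043), DESeq2 (0.027) and limma-voom (0.0466), and Foxo1 with edgeR (0.0474), DESeq2 (0.0135) and MK-8617 replicate 2 left out (0.0305). Of 9 genes of protein phosphatase 2A, the partner of cyclin G1, only the scaffold gene Ppp2r1b was tested, and it rose by 0.94 ± 0.1.

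The genes whose profiles over the 6 samples were closest to those of Phlda3, Bak1 and Ccng1, by the root mean square difference of centred log2(normalised read + 1) among 6717 other genes, were not members of the p53 lists. Closest to Phlda3 were Anxa2 (0.075), Gm6055 (0.1) and Selenow (0.108). Closest to Bak1 were Eef1akmt2 (0.046), Rps12 (0.048) and Bex3 (0.051), and closest to Ccng1 were Rpl3 (0.032), Ssrp1 (0.04) and Med11 (0.044). Bak1 and Ccng1 differed from each other by 0.16, and Phlda3 from Bak1 by 0.391. These distances are descriptions over 6 libraries that share the group difference.

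**Figure D4:**
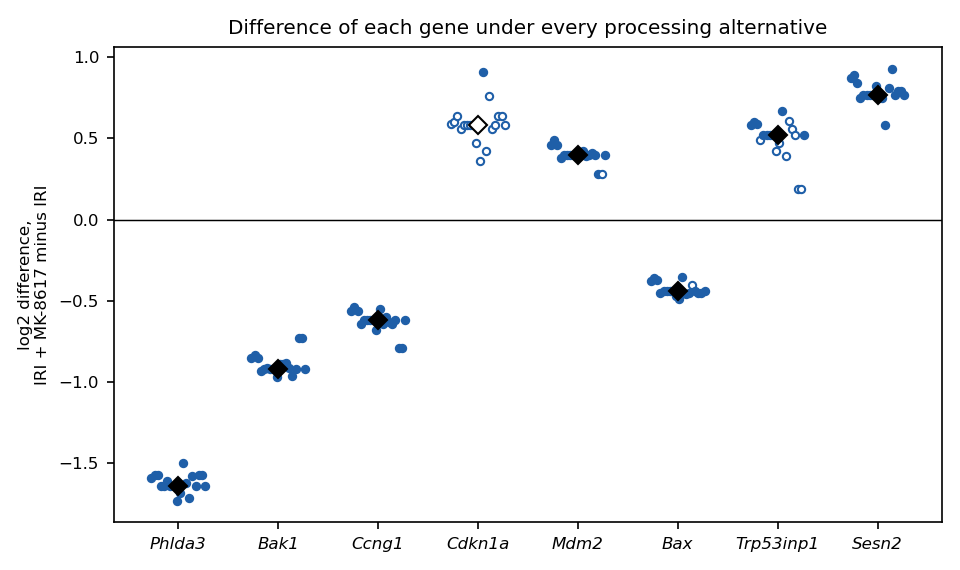
Log2 difference (vertical axis, IRI with MK-8617 minus IRI) of each of the 8 genes as reported (black diamond) and under 18 processing alternatives (circles), filled where the adjusted p was below 0.05. Phlda3, Bak1, Ccng1 and Sesn2 are filled throughout, Trp53inp1 is open in 10 alternatives, and no gene crosses 0.

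Counted reads per library came to 16835541 to 19508497, and the 8 genes rested on 149 to 4698 reads per library. The first principal component of all genes tested held 81.3% of the variance. Kidney transcripts were present in every library, with 21673.5 to 50299.2 normalised reads of Umod, the uromodulin gene of the thick ascending limb, and 1160 to 5836 of Slc22a8, a proximal tubule transporter gene. Umod was not past the threshold (0.46). Of the 5 thick limb and distal nephron markers in the table, Umod among them, 3 were lower and 0 higher, with Slc12a1 at -1.7. Summed marker transcripts of other cell populations differed between the groups, and fewer cells and less RNA per cell cannot be told apart in such sums. The 8 macrophage markers in the table, 6 lower and 0 higher, summed to 152 to 308 CPM with IRI and 63.6 to 83.9 CPM with MK-8617, and the 5 fibroblast markers, 4 lower and 1 higher, to 1004 to 1805 against 320 to 396 CPM. The 4 proximal tubule markers, 2 higher and 0 lower, summed to 589 to 1701 against 2723 to 3045 CPM. The 3 podocyte markers, 3 higher and 0 lower, summed to 60.8 to 68.4 against 107 to 121 CPM. For the 2 endothelial markers, 1 higher and 0 lower, the sums were 150 to 192 against 218 to 293 CPM. These 2 markers went opposite ways, since Flt1 rose (0.98) and Emcn lay lower (-0.33) without passing the threshold. For the 2 neutrophil markers, 2 lower and 0 higher, the sums were 29.8 to 46.7 against 10.5 to 26.4 CPM. Beside these counts, 38.7% of all genes tested were lower and 35.7% higher. None of these markers was at 0, and 0 of 10 lymphocyte markers were in the table. The part of these cell populations in the differences of Phlda3, Bak1, Ccng1 and the other members was not tested.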

How the data were processed

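RNA sequencing of 6 kidney samples was used, grouped by title. The submitters' processing notes list DESeq2 1.20.0, featureCounts 1.5.0-p3, HISAT2 2.0.5, CASAVA 1.8 and fastp, with no order. They name GRCh38, while the identifiers are mouse, and 7338 of 7340 matched GENCODE M21 (GRCm38), the source of coordinates and lengths. The deposited signal values are counts the authors divided by a size factor (0.937 to 1.0979). Multiplying back gave whole reads (100% of values, tolerance 0.001) that equalled the 1 deposited raw count column in 7340 genes. FPKM was deposited by the authors too, and library totals were derived from it. The authors' log2 fold changes and p-values (largest 0.0499) were deposited too. Their adjustment spanned 18811 genes, of which 11560 were not analysed here, and 13 empty columns were not used.

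limma 3.58.1 (trend, robust, R 4.3.3) was run on log2(normalised read + 1), which understates changes of low genes, after filterByExpr of edgeR 4.0.16 (6961 genes kept, 379 removed), with Benjamini-Hochberg adjustment over 18811 genes. The script was tested on simulated data. Replicates differed by more than sampling noise (chi-square per degree of freedom 16.25 to 45.22). The alternatives were edgeR and DESeq2 1.42.0 on recovered reads (5208 and 5402 genes called, against 5173), limma-voom, FPKM + 0.1, pseudocounts of 0.5 and 5, no filter, a mean of at least 5 CPM, leaving out each library, a replicate block, removal of trends on exon length and GC content, and adjustment over tested genes alone. Members and lists were chosen with earlier results of these data known. Named genes were the 8 members, up to 4 genes per list with the smallest adjusted p, and the 3 nearest profiles of Phlda3, Bak1 and Ccng1. Genes outside that rule (such as Pidd1, Chek2, Ccng2, Akt1, Usp7 and those that did not pass) were named after their values were seen.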

Additional observations from a re-analysis of the deposited data

How the results depend on the processing

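Phlda3, Bak1, Ccng1 and Sesn2 kept their direction and their call in all 18 alternatives, at -1.73 to -1.5, -0.97 to -0.73, -0.79 to -0.54 and 0.58 to 0.93 on the log2 scale. Leaving out each library in turn gave 0.36 to 0.91 for Cdkn1a, -0.49 to -0.35 for Bax, 0.39 to 0.67 for Trp53inp1, 1488 to 2446 genes higher over all genes tested, 9 to 14 lower among the p53 lists, and 6 to 10 lower without the 8 members. Trp53inp1 was not called on log2(FPKM + 0.1) (0.49), with a mean of at least 5 CPM (0.52), with the replicate block (0.52), or with the length and GC trends removed without (0.19) or with (0.19) the block, and Mdm2 was not called with the trends removed and the block (0.28). Among the p53 lists without the 8 members, 6 genes were higher with DESeq2, 5 with the trends removed and the block, and 5 with adjustment over tested genes alone. Ccnb2, which was not called (-1.04), spanned -1.93 to 0.05 over the left-out libraries and changed sign without IRI replicate 2. Removing the trends moved the median of all genes tested by 0.11, from -0.31 to -0.2, where Phlda3 was at -1.57, Bak1 at -0.73 and Ccng1 at -0.79. The cause of these changes was not tested.

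Replicate numbers are shared between groups. Same-numbered libraries correlated at 0.021, 0.116 and 0.115 in their deviations from the group means. Each library correlated best with its own number, but IRI replicate 1 reached 0.02 with MK-8617 replicate 2 as well. This weak pattern is a hint from the data and not the design. With the replicate block 2510 genes were higher and 2747 lower, against 2482 and 2691, and of the 8 members only the call of Trp53inp1 changed. Genes named as not past the threshold that the block brought past it were Akt1, Dram1, Hipk2, Pcna and Psrc1. With adjustment over tested genes alone Akt1, Pik3cb, Foxo1, Eda2r, Dram1, Ei24, Hipk2, Usp7, Pcna and Psrc1 were called. Depth limits the low genes: 3 reads correspond to 0.154 to 0.178 CPM, counting error only.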
